A study of Arabidopsis thaliana with 3 samples.

Results

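Flavonoids are made from phenylalanine by a chain of enzymes that is usually divided into early steps, which lead to the colourless precursors and to flavonols, and late steps, which lead to the red and purple anthocyanins. In Arabidopsis the early genes are switched on by flavonol-specific MYB factors, and the late genes by a complex of MYB, bHLH and WD-repeat proteins. SPL10 is an SBP-domain transcription factor whose transcript is cut by the microRNA miR156. A member of the same family, SPL9, is known to lower anthocyanin in Arabidopsis stems by disturbing that complex at late genes such as DFR. The binding of SPL10 at the enzyme genes themselves was examined here for 8 loci, 5 early and 3 late, out of 27444 annotated nuclear protein-coding genes. They were chosen by locus identifier, and every called SPL10 peak was taken whose summit, the position of highest enrichment, lay in the gene or within 3000 bp of either end.

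SPL10-bound DNA from leaf of Arabidopsis thaliana, ecotype Col-0, was mapped by an assay that the labels call DAP-seq. As usually described, DAP-seq exposes purified genomic DNA to a factor made in vitro, whereas the labels' protocols describe formaldehyde-fixed cells and sonicated chromatin, as in chromatin immunoprecipitation. The 2 descriptions conflict, so whether the folds measure binding in vitro or in the leaf cannot be told apart from the sources used here. The series held 2 SPL10 precipitations, each with its own peak list, and 1 input, of which only an alignment log of 19553456 read pairs was read. No other genotype, treatment or age is given in the labels, and the sources used here do not say how the SPL10 protein was made. A list of bound DNA holds no marker levels, so the labelled leaf tissue could not be checked against leaf genes.

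The peak lists held 21574 and 21439 peaks for replicates 1 and 2, and the median nuclear summit carried 47 and 44 sequence tags, recovered from the deposited values. Fold enrichment is the authors' value for each peak, the tags at the summit over the local background expected by the peak caller. Bracketed ranges after a fold are 95% intervals, computed as exact Poisson limits on the tag number, which cover counting error only. A peak was called shared when the peaks of both replicates overlapped by at least 50% of each, which 16697 nuclear peaks did. At these shared summits the replicates split their tags more evenly than binomial sampling gives (variance 0.649 times the binomial value). These are peaks called in both lists, so the value does not show whether the replicates are independent. The replicates form 1 group, and the sources used here do not state that they come from separate plants. They were therefore counted as 1 sample, with both values given and no standard deviation.

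Of the 8 enzyme genes, 5 had at least 1 shared summit in the window: CHS, CHI and FLS1 among the early genes, and DFR and UF3GT among the late ones. That is 62.5% of the genes, against 69.7% of all protein-coding genes, so the count lay near the background. The lists placed 13 summits of replicate 1 and 11 of replicate 2 in the 8 windows, and 9 were shared. Shared summits stood at 0.144 per kb of window for the 8 genes and at 0.140 per kb for all protein-coding genes. Of the 9, 3 lay inside the enzyme gene, 4 inside another coding gene and 2 between coding genes. The places of all shared summits were not counted, so these numbers have no background and only describe the 9. Which end of each gene is its promoter was not used here, so positions are given from the lower-coordinate and higher-coordinate ends.

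**Figure D1:**
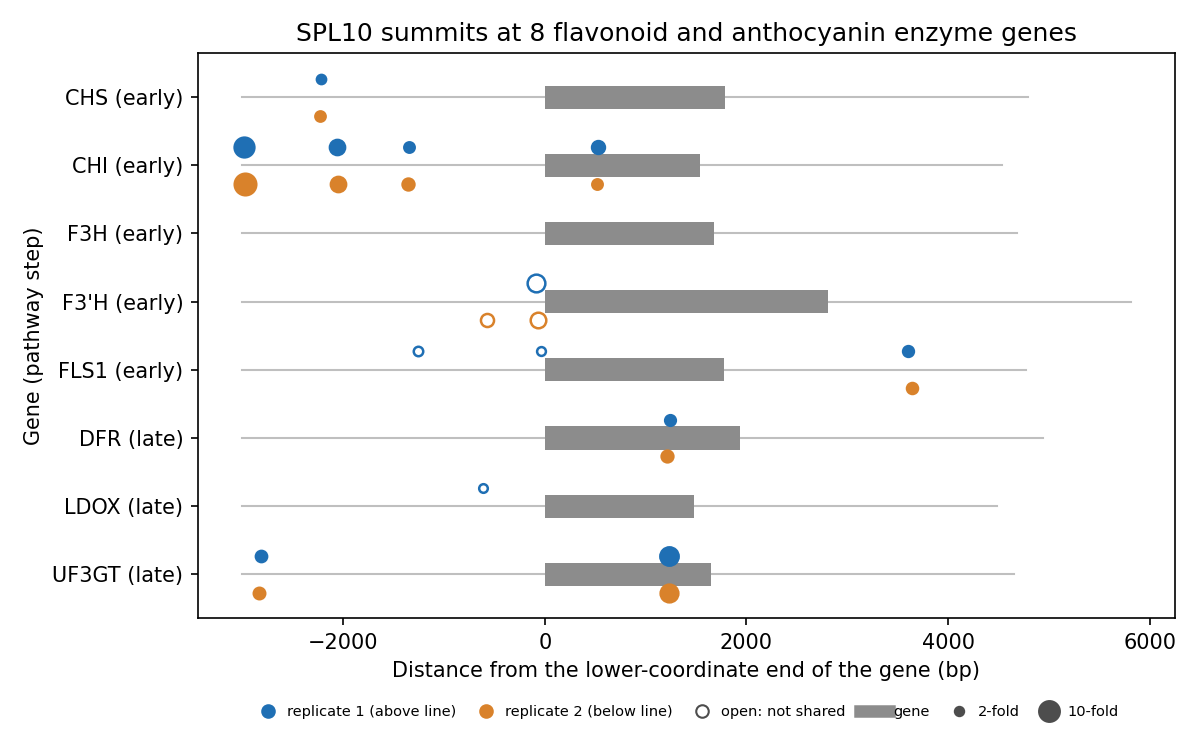
Each line is the window of 1 gene, from 3000 bp before its lower-coordinate end (0 on the horizontal axis, in bp) to 3000 bp past its higher-coordinate end, with the gene as a grey bar. Circles are summits of replicate 1 (above the line) and replicate 2 (below), with area proportional to fold enrichment and open where the peak was not shared. CHI has 4 shared summits, F3H has none of either list, and only CHI, DFR and UF3GT have a shared summit inside the gene.

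CHS (AT5G13930) encodes chalcone synthase, which joins the phenylpropanoid and malonyl units and so commits carbon to flavonoids. Its 1 shared summit was the weakest of the 9, at 1.97-fold (1.43 to 2.65, 41 tags) in replicate 1 and 2.43-fold (1.77 to 3.26, 42 tags) in replicate 2. In replicate 1 it spanned 4486141 to 4486547 of chromosome 5 (TAIR10), inside the neighbouring coding gene AT5G13920, with its summit 2218 bp off the lower-coordinate end of CHS. Both replicates had nearly the same tags there, and the expected background was raised in each, to 1.57 and 1.37 times the genome level. A raised background was not particular to CHS. It was 1.37 and 1.47 times inside CHI, 1.18 inside DFR and 1.19 inside UF3GT in both replicates. At the shared summit of FLS1 it was 1.18 times in replicate 1 and not raised in replicate 2. The mean fold of the CHS summit stood at percentile 9.09 of all shared summits. No summit of either list lay inside CHS itself. Past the window, the next shared summit stood 3413 and 3410 bp off, at 3.20-fold and 3.56-fold.

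CHI (AT3G55120) encodes chalcone isomerase, which closes the chalcone into the flavanone naringenin. With 4 shared summits in its window it stood with 2.75% of protein-coding genes, the share that had 4 or more. The strongest reached 9.004-fold (7.52 to 10.7, 126 tags) in replicate 1 and 10.7-fold (9.04 to 12.6, 141 tags) in replicate 2, on chromosome 3 at 20426909 to 20427263. This summit lay 2983 and 2976 bp off the lower-coordinate end, just inside the window, and within ABCG18 (AT3G55110), a gene of the ABC transporter family. It was at percentile 89.9 of shared summits.

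The other summits of CHI came closer to the gene and were weaker. The next one lay between genes, 2065 bp off CHI and 610 bp off ABCG18 by the replicate 1 summit, with enrichments of 5.33-fold (4.20 to 6.66) and 5.37-fold (4.21 to 6.76). The third, 1351 bp off, had 2.50-fold (1.76 to 3.45) and 3.26-fold (2.37 to 4.37). Inside CHI, 531 bp from the lower-coordinate end in replicate 1, the fourth summit had 3.82-fold (2.99 to 4.80, 71 tags) in replicate 1 and 2.49-fold (1.84 to 3.30, 46 tags) in replicate 2. Of the 9 shared summits this one differed most between replicates. It did not pass the exact binomial test of the tags (p = 0.0518, adjusted p = 1 with Benjamini-Hochberg over 16681 shared summits, of which 1, or 0.00599%, passed). It was also the strongest shared summit of CHI, at a mean of 3.08-fold, when the window was cut to 2000 or 1000 bp.

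F3H (AT3G51240) encodes flavanone 3-hydroxylase, which makes the dihydroflavonols from which both flavonols and anthocyanins branch. No peak of either list had its summit within 3000 bp of it, a state found for 15.5% of protein-coding genes. The nearest shared summit lay 3808 and 3804 bp off, at 5.82-fold (81 tags) and 7.63-fold (100 tags). F3H was the only one of the 8 genes without a peak in either list. Absence from a list says that no enrichment was called at this depth, not that SPL10 does not bind.

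The gene for flavonoid 3'-hydroxylase (F3'H, AT5G07990), a cytochrome P450 that adds a hydroxyl group to the B ring, had strong summits beside its lower-coordinate end in each list. Replicate 1 had 7.23-fold (5.91 to 8.77, 101 tags) at 90 bp off the gene, and replicate 2 had 5.60-fold (4.41 to 7.01, 73 tags) at 66 bp off. The summits were 24 bp apart, and no coding gene other than F3'H lay within 3000 bp of them. Even so, the peak did not count as shared. In replicate 1 it was 1088 bp wide, on chromosome 5 at 2559394 to 2560481, while replicate 2 divided the stretch into a peak of 435 bp and a separate one of 297 bp. The latter had its summit 572 bp off the gene, at 3.94-fold (2.95 to 5.15).

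With any overlap of 1 bp accepted, the pair beside F3'H was matched at a mean of 6.36-fold, percentile 75.8 of shared summits. The count of genes with a shared summit then rose to 6 of 8, or 75%, against 71.5% of protein-coding genes. The tags of this pair did not pass the test between replicates (exact binomial test, p = 0.0949, adjusted p = 1).

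FLS1 (AT5G08640) encodes the main flavonol synthase, at the branch from dihydroflavonols to flavonols. Its 1 shared summit had 2.70-fold (1.97 to 3.61, 43 tags) and 2.80-fold (1.99 to 3.85, 36 tags). It lay 1828 and 1870 bp past the higher-coordinate end, inside AT5G08650, and spanned 2807330 to 2807565 of chromosome 5 in replicate 1. Replicate 1 alone called 2 more peaks on the other side. One, 43 bp off the lower-coordinate end, had 1.79-fold (1.18 to 2.62, 24 tags). Its −log10 q was 0.998, so its q was above 0.05, as for 10.8% of the replicate 1 list. The other, 1263 bp off and inside AT5G08630, had 2.07-fold (1.41 to 2.95, 28 tags). The summit nearest to FLS1 was thus weak and in 1 list only.

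DFR (AT5G42800) encodes dihydroflavonol 4-reductase, the first enzyme of the late branch. It had 1 shared summit, inside the gene, at 2.63-fold (1.92 to 3.54, 42 tags) and 3.19-fold (2.38 to 4.21, 48 tags). The replicate 1 peak spanned 17165161 to 17165633 of chromosome 5, with the summit 695 and 726 bp from the higher-coordinate end. It stood at percentile 31.1 of shared summits, and no other peak of either list lay in the window. The next shared summit was 7690 and 7685 bp off, at 8.51-fold and 8.08-fold.

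LDOX (AT4G22880), also called anthocyanidin synthase, encodes the dioxygenase that forms the coloured anthocyanidins. It had no shared summit. A peak was called in replicate 1 only, 615 bp before the gene's lower-coordinate end. It reached 1.72-fold (1.12 to 2.53, 23 tags) and a −log10 q of 0.738, again with a q above 0.05, as for 10.8% of that list. It was the weakest of the 24 summits in the 8 windows. LDOX and F3'H were the 2 genes with called summits of which none was shared, a class that held 14.8% of protein-coding genes.

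UF3GT (AT5G54060) encodes a glycosyltransferase that extends the sugar on anthocyanins. It had the strongest summit inside any of the 8 genes, at 7.77-fold (6.49 to 9.23, 127 tags) in replicate 1 and 7.24-fold (5.97 to 8.71, 111 tags) in replicate 2. The replicate 1 peak spanned 21937790 to 21938149 of chromosome 5. In both lists the summit fell on the same base, 422 bp from the higher-coordinate end, and 819 bp from the nearest other coding gene, AT5G54062. A weaker shared summit, at 2.92-fold (2.11 to 3.94) and 3.03-fold (2.18 to 4.11), lay 2817 and 2834 bp off the other end, inside AT5G54050. Having a shared summit inside the gene was common: 26.6% of protein-coding genes had one, and so did 3 of the 8 enzyme genes, CHI, DFR and UF3GT.

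**Figure D2:**
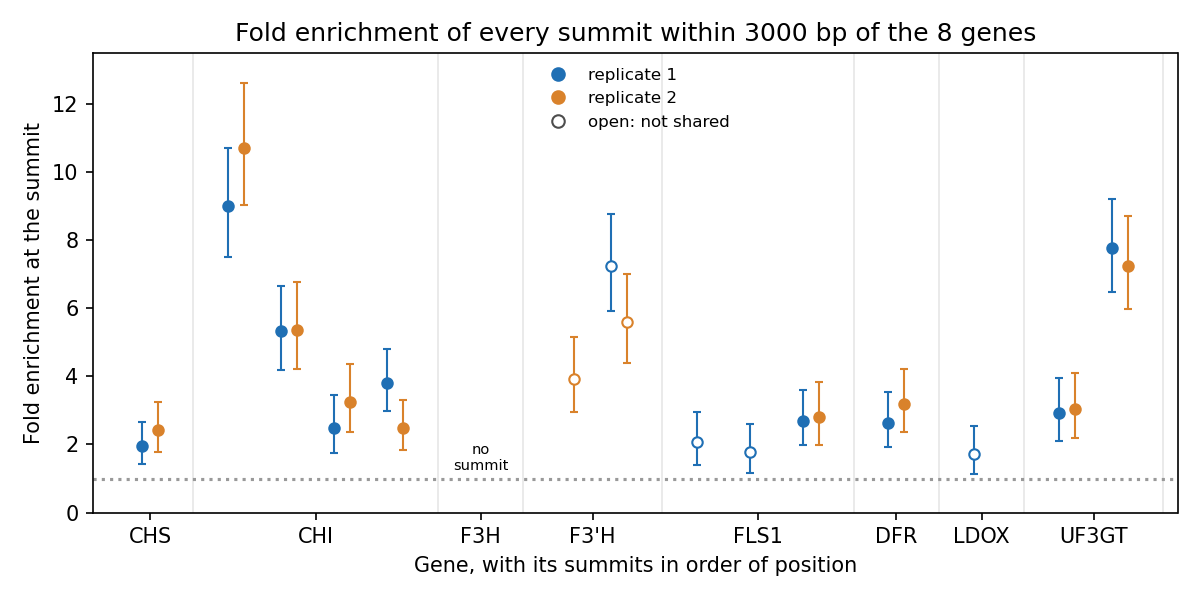
Fold enrichment (vertical axis, a ratio to the caller's background) of every summit in the 8 windows, ordered by position within each gene. Bars are the 95% counting intervals, exact Poisson limits on the tag number, blue for replicate 1 and orange for replicate 2, and open points were not shared. Only the windows of CHI, F3'H and UF3GT hold summits above 5-fold, and the dotted line marks no enrichment.

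Ordered by the strongest shared summit, as the mean of both replicates, CHI led with 9.83-fold, followed by UF3GT with 7.50-fold. The lead of CHI rested on its summit inside ABCG18, near the limit of the window. Within 2000 or 1000 bp CHI had 3.08-fold, close to DFR, and UF3GT led. DFR had 2.90-fold, FLS1 2.75-fold and CHS 2.19-fold. The counting intervals of CHI and UF3GT overlapped in replicate 1 and not in replicate 2. Those of DFR, FLS1 and CHS overlapped in both replicates, so their order was not resolved. UF3GT and DFR were apart, with intervals that did not overlap in either replicate. None of the 9 shared summits passed the test between replicates after adjustment (exact binomial test, adjusted p = 1 for each). At an unadjusted p under 0.05 the count was also 0. Only peaks called in both lists entered this test, and their tags varied less than binomial sampling gives (0.649 times its variance). It could therefore hardly find a difference, and no agreement of the replicates is concluded from it.

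Of the strongest summits of these 5 genes, 3 were below the median of protein-coding genes and 2 above it, near the even split that a median gives. Among protein-coding genes with a shared summit in the window, the median of the strongest was 4.66-fold, with quartiles of 3.08-fold and 7.69-fold. Within that distribution CHI stood at percentile 84.7 and UF3GT at 73.9, whereas DFR was at 20.5, FLS1 at 16.8 and CHS at 5.09. The median of the 5 genes was 2.90-fold. When only peaks with a −log10 q of at least 10 were used, CHI and UF3GT were the 2 genes left, or 25% against 44.3% of protein-coding genes. With the 5000 peaks of highest fold the same 2 were left, against 26.1%. The count also depended on the window: within 1000 bp the count was 3 of 8 against 45.9%, within 2000 bp it was 4 of 8 against 59.9%, and with summits outside the gene only it was 4 of 8 against 59%. In the replicate 2 list alone 6 of 8 genes had a summit, against 78.8% of protein-coding genes, and in the replicate 1 list alone 7 of 8, against 79.2%. Of all these settings, the limit on −log10 q was the only one where the count differed from the background by more than 1 gene, and there it was lower.

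**Figure D3:**
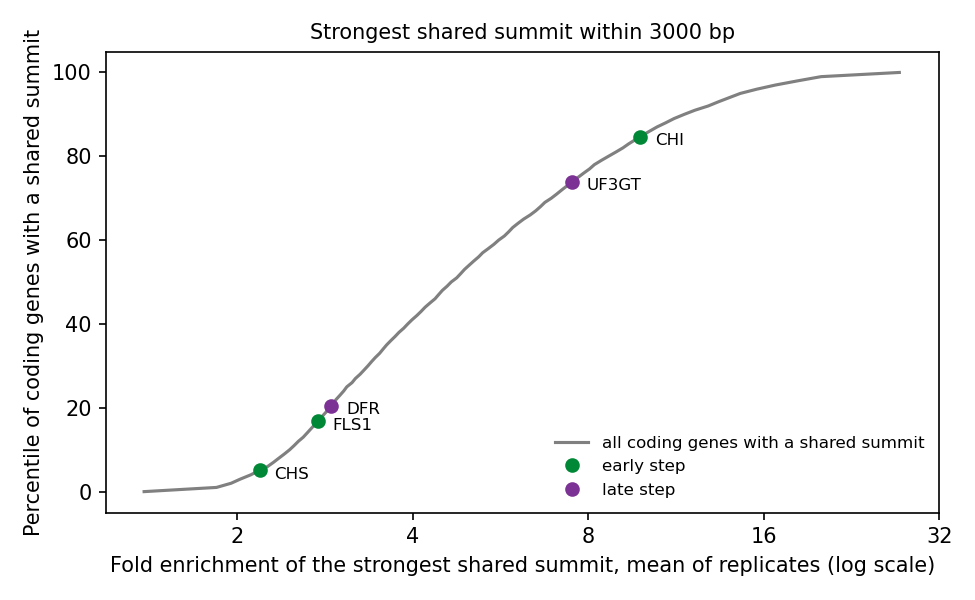
The curve gives, for protein-coding genes with a shared summit within 3000 bp, the percentile (vertical axis) of the fold enrichment of the strongest one (horizontal axis, log scale). Points are the 5 enzyme genes with a shared summit, green for early and purple for late steps. CHI and UF3GT lie above the median of 4.66-fold, and CHS, FLS1 and DFR below percentile 21.

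Early and late steps were then compared. Of the early genes 3 of 5 had a shared summit, or 4 of 5 with any overlap, and of the late genes 2 of 3 either way. Among all protein-coding genes these shares were 69.7%, and 71.5% with any overlap. A shared summit inside the gene was found for 2 of 3 late genes, DFR and UF3GT, and 1 of 5 early genes, CHI. Of all protein-coding genes 26.6% had one inside. The summit inside CHI was not its strongest. On the log2 scale, the strongest shared summits of the early genes averaged 1.96 and those of the late genes 2.22, a difference of -0.26 (counting half-width 0.24 at 95%). In replicate 1 alone, over the same summits, it was -0.32, and in replicate 2 it was -0.20.

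The size and direction of this difference were not stable. It was larger with shorter windows, at -0.60 (half-width 0.32) within 1000 bp and -0.68 (half-width 0.27) within 2000 bp, where CHI loses its strongest summit, CHS drops out, and within 1000 bp FLS1 does too. It turned to 0.39 with a −log10 q of at least 10, where 1 gene was left on each side, and to 0.40 with all peaks of replicate 1 and none of replicate 2, when the weak LDOX peak and the strong F3'H peak came in. With FLS1, the flavonol branch, left out it was -0.009, and with any overlap, which brings in F3'H, it was -0.08. With summits outside the gene only it was 0.39 (half-width 0.36). There DFR dropped out, and the late side was 1 gene, UF3GT, by its weaker summit inside AT5G54050. Among 3 early and 2 late genes, each step held strong and weak members, CHI against CHS and UF3GT against DFR. Genes are not replicates of a step, so the difference has no test over samples.

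A further 31 genes of the pathway, all protein-coding, were taken in 4 groups. Of these, 20 had a shared summit in the window (64.5%, against the 69.7% of all protein-coding genes), with a median strongest summit of 5.48-fold. The share with one was above the background within 1000 bp (54.8% against 45.9%) and 2000 bp (61.3% against 59.9%). So it was at a −log10 q of at least 10 (51.6% against 44.3%) and in replicate 1 alone (83.9% against 79.2%). It was lower with summits outside the gene only (54.8% against 59%) and with any overlap (64.5% against 71.5%). It was also lower in replicate 2 alone (74.2% against 78.8%) and with the 5000 peaks of highest fold (25.8% against 26.1%). In 13 of the 20 the strongest summit was above the 4.66-fold median of coding genes, as it was in 2 of the 5 enzyme genes. These counts describe the lists and were not tested.

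In the general phenylpropanoid steps, which supply the precursor for lignin as well as flavonoids, 7 of 9 genes had a shared summit (77.8%). The share of all protein-coding genes, for this group and those below, was 69.7%. PAL1 (AT2G37040), a phenylalanine ammonia-lyase at the entry of the pathway, had 9.73-fold (8.38 to 11.2) and 9.02-fold (7.68 to 10.5), 2042 and 2037 bp off the gene and outside any gene. PAL3 had 7.73-fold (6.36 to 9.31) and 7.03-fold (5.68 to 8.60), also between genes, 1352 and 1358 bp off. The counting intervals of both overlapped those of the summit inside UF3GT in each replicate.

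Among CHIL and the flavonol synthase relatives of FLS1, 2 of 6 had a shared summit (33.3%, against 69.7%), a small group that was not tested. FLS6 had 5.43-fold (4.33 to 6.73) and 4.94-fold (3.86 to 6.23), 74 and 66 bp off the gene. CHIL, a protein related to chalcone isomerase that aids chalcone synthase, had 5.08-fold (4.12 to 6.20) and 4.96-fold (3.99 to 6.11), with a summit 2649 bp off and inside another gene. FLS2, FLS3, FLS4 and FLS5, named after their values were seen, had no shared summit. Replicate 1 listed 2 summits at FLS2 and 1 at each of the others, and replicate 2 listed 1 at FLS5 only. Called summits of which none was shared were found for 14.8% of protein-coding genes.

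Genes for decoration and transport had a shared summit in 8 of 12 cases (66.7%, against 69.7%). OMT1 (AT5G54160), a methyltransferase acting on flavonols and lignin precursors, held the strongest of the whole pathway at 14.9-fold (210 tags) and 15.0-fold (198 tags). Its summit lay 2231 and 2228 bp off, between genes. For UGT78D2, which adds glucose to anthocyanidins and flavonols, the strongest had 10.2-fold (8.62 to 12.0) and 10.2-fold (8.56 to 12.1). That summit was 2902 bp off in replicate 1 and lay inside the neighbouring UGT78D3, a flavonol arabinosyltransferase gene, so the 2 genes share it. In the proanthocyanidin branch, which colours the seed coat, 3 of 4 genes had a shared summit (75%, against 69.7%). The laccase gene TT10 had 7.09-fold (5.78 to 8.62) and 7.41-fold (6.02 to 9.02), inside a neighbouring gene, and the transporter gene TT12 had 4.97-fold (3.89 to 6.26) and 6.18-fold (4.94 to 7.66). BAN, the anthocyanidin reductase at the head of that branch, had no peak in either list. Nor had the anthocyanin glucosyltransferase gene AT4G14090 or the malonyltransferase gene AT5MAT. These 3, named after their values were seen, resemble F3H in that respect. They were the only ones of the 31 other pathway genes without a summit of either list in the window. That state was found for 15.5% of protein-coding genes, so it was not more common among the other pathway genes.

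**Figure D4:**
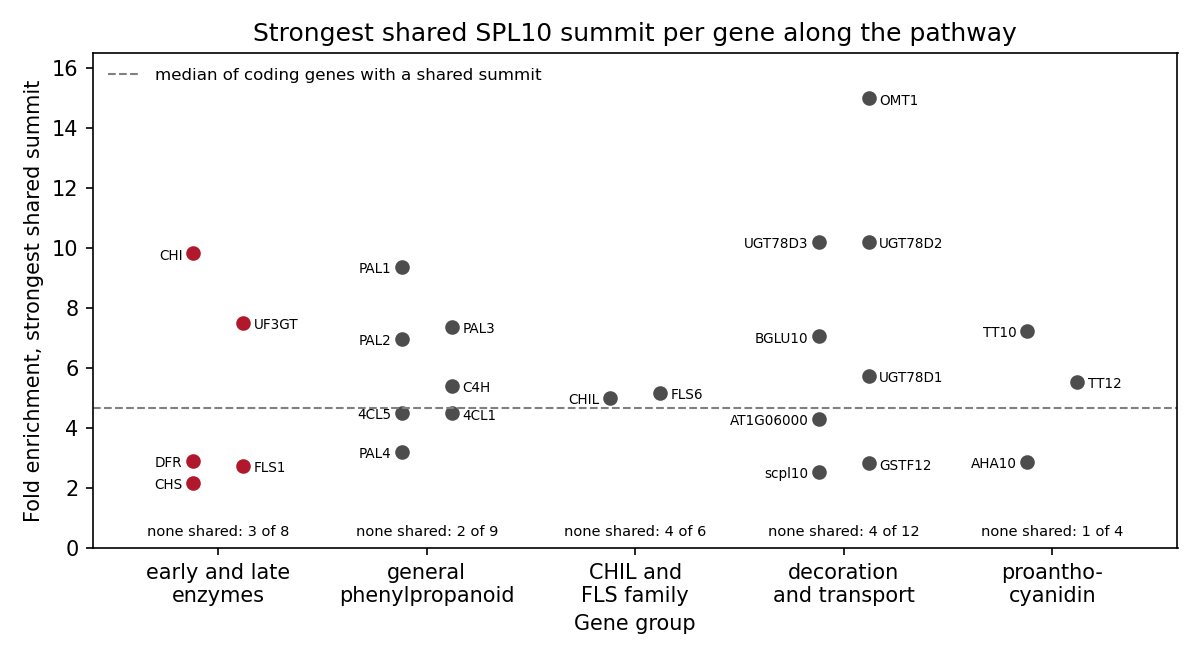
Fold enrichment of the strongest shared summit (vertical axis, mean of both replicates) for each gene with one, by group along the pathway, with the 8 enzyme genes in red. The number of genes with none is printed under each group, and the dashed line is the 4.66-fold median of protein-coding genes. OMT1 is the highest at 15.0-fold, and UGT78D2 and UGT78D3 show the same summit.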

How the data were processed

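Each precipitation had its own peak list as deposited by the authors, with positions, a score, a fold enrichment at the summit, −log10 p-value and −log10 q-value. Peak names in the deposited lists name MACS. Its version, threshold and control are not stated in the sources used here. Cutadapt and the TAIR10 build are named by the submitters' processing notes. The deposited score was not used. Per the labels' protocols, cells were formaldehyde-fixed and chromatin was sonicated.

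Of the peaks, 21500 and 21363 were nuclear and were analysed with Python 3.11.15, scipy 1.17.1 and matplotlib 3.10.9. Tag numbers were solved from fold and −log10 p (matched within 0.005 for 99.97% and 99.93% of summits, with 1 solution for 97.3% and 98.7%), which put replicates 1 and 2 at 1.26 and 1.18 times the depth of the background library. The genome background was 10.2 tags. No interval is given above 198 tags, a limit set at the width in bp of the narrowest peak. The most tags found at a summit were 396. Recovery and the binomial test were also run on simulated data. For the binomial test these were independent Poisson tags, without the choice of peaks called in both lists. That run therefore does not show how the test behaves at the real shared summits.

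Gene positions and symbols were those of RefSeq for TAIR10.1, matched by locus tag (8 of 8 enzyme genes, 31 of 31 other pathway genes), and were used for distances only. Shared summits were placed at the mean of both summits. The tag test was an exact binomial test, two-sided, against the overall split (51.4% to replicate 1), adjusted over all shared summits at a threshold of 0.05. Promoter sequence and strand were not used here, so the planned search for the GTAC core that SBP domains recognise was not run. The replicates are not stated to come from separate plants. Named genes were the 8 members, and up to 2 other pathway genes per group with the highest fold, with genes holding a member's summit beside it. Members and lists were chosen with earlier results of these data known.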

Additional observations from a re-analysis of the deposited data

How the results depend on the processing

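With windows of 1000 bp, 3 of the 8 enzyme genes (CHI, DFR and UF3GT) had a shared summit, against 45.9% of protein-coding genes. With a −log10 q of at least 10 the count was 2, against 44.3% of protein-coding genes. With the 5000 peaks of highest fold it was also 2, against 26.1%, and 8 of the 31 other pathway genes (25.8%) had one. With windows of 2000 bp, with summits outside the gene only and with any overlap the count for the 8 genes was 4, 4 and 6. The shares of protein-coding genes there were 59.9%, 59% and 71.5%. Leaving out a replicate gave 6 to 7 of the 8 genes and 23 to 26 of the other 31, with 78.8% and 79.2% of protein-coding genes. The early minus late difference on the log2 scale was -0.60 with windows of 1000 bp, -0.68 with 2000 bp, 0.39 with a −log10 q of at least 10 and -0.009 without FLS1. It ranged from -0.10 to 0.40 when a replicate was left out, and was -0.41 with any overlap and F3'H counted as late, an alternative added after seeing the data. The strongest shared summit of CHI was 3.08-fold with either shorter window, which leaves out its summits farther off. F3'H had 1 shared summit with any overlap and 1 to 2 summits in single lists, and LDOX 0 to 1, where the shared count was 0. In single lists CHS had 1.97-fold to 2.43-fold, CHI 9.004-fold to 10.7-fold, FLS1 2.70-fold to 2.80-fold, DFR 2.63-fold to 3.19-fold and UF3GT 7.24-fold to 7.77-fold. Some settings left a gene without a summit and so gave no value for it, and the motif alternative was not run. Replacing tags by the ratio of deposited folds moved none of the 9 replicate differences beyond its counting interval. No paired analysis was possible because the 2 precipitations form 1 group, and the input has no peak list and no replicate number in its label. The 3 summits at FLS1 and LDOX that were listed in replicate 1 only held 23 to 28 tags, and the part of depth in this was not tested.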
